A study of Homo sapiens with 8 samples.

Results

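The transcripts described here are 9 long noncoding RNAs with known ties to cancer: MALAT1, NEAT1, H19, PVT1, GAS5, SNHG1, MEG3, HOTAIR and UCA1. They were taken by symbol from a table of 57905 genes, and all 9 were found, each in 1 row. Their levels were measured by RNA sequencing of DU145 and PC3, established human lines grown from metastases of prostate cancer. The cells had received a lentivirus that carries TRIB1, the gene of a pseudokinase that brings substrates to the ubiquitin ligase COP1, or an empty lentivirus as the control. Each line has a control group and a TRIB1 group, 4 groups of 2 libraries in all, and the question in either line is how these RNAs stand once TRIB1 is overexpressed. Every group carries a lentivirus, and the labels give no untreated cells, no promoter, no dose and no time after infection. They also do not say whether libraries of a group came from separate cultures, so a p-value here reflects the spread among libraries alone, and that spread may be technical.

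Long noncoding RNAs are transcripts that resemble mRNAs in length but are not known for a protein product, and they act in several ways. MALAT1 and NEAT1 stay in the nucleus, in splicing factor speckles and as the scaffold of paraspeckles. GAS5 and SNHG1 carry small nucleolar RNAs (snoRNAs, guides for the chemical modification of ribosomal RNA) in their introns, and their spliced transcripts are degraded by nonsense-mediated decay, a pathway coupled to translation. H19 and MEG3 are imprinted genes, read from the maternal chromosome. HOTAIR lies in the HOXC cluster and was described as a partner of Polycomb repressive complex 2. PVT1 is the neighbour of the MYC oncogene, and UCA1 was first described in bladder cancer.

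MALAT1 and NEAT1 belong together in sequence as well as in place. Both lie on chromosome 11, and the 3′ end of MALAT1 and of the long form of NEAT1 is made by cleavage at a tRNA-like structure, not by polyadenylation. The end is protected by a triple helix, in which U-rich tracts pair with an A-rich tract. The stretches that hold these tracts are shown because RNAs with such ends lack the poly(A) tail that many library kits select for. They come from the single-exon GENCODE 29 transcripts MALAT1-202 (chr11:65506007-65506116, GRCh38, plus strand) and NEAT1-202 (chr11:65445431-65445540, GRCh38, plus strand). Each has 110 bases, with capitals for TTTTTCTTTT, TTTTGCTTTT and the closing A-rich tract. Only exact matches are in capitals, so other U-rich runs, such as tttctttt in NEAT1, stay in lower case.
MALAT1: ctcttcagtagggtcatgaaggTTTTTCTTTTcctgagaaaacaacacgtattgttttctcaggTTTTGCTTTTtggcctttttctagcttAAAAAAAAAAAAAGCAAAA
NEAT1: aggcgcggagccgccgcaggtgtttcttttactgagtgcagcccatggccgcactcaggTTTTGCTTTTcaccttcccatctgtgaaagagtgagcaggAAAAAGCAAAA
The A-rich tract is the last base run of NEAT1-202, which is 22743 bases long. In MALAT1-202, of 8708 bases, 353 annotated bases follow it.

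GAS5 belongs to the genes known for transcripts that open with a terminal oligopyrimidine tract, as those of ribosomal proteins do. The first 30 bases are shown for the 2 snoRNA hosts among the 9. For GAS5 a transcript was picked because it opens with such a tract, while SNHG1 is read from its RefSeq start. The stretches therefore do not compare the 2 hosts. Capitals mark a C followed by at least 4 pyrimidines at the very start. The stretches are chr1:173867960-173867989 (minus strand) of GAS5-210, from GENCODE 29 on GRCh38, and chr11:62855856-62855885 (minus strand) of SNHG1, from RefSeq on GRCh38.p14, read on the genome from its start.
GAS5: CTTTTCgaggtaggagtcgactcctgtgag
SNHG1: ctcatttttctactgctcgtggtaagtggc
Of the annotated transcripts, 6 of 29 of GAS5 and 1 of 25 of SNHG1 open with a tract of this form. Neither the RefSeq start of GAS5 nor that of SNHG1 does.

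The values are TPM, a transcript share that takes gene length into account and sums to the same total in every library, so the depth of the libraries is unknown. Between 30398 and 31694 genes were above 0 per library. TRIB1 stood at 10.1 and 7.94 TPM in DU145 control and at 69.4 and 62.3 TPM with TRIB1, and at 45.1 and 50.8 TPM in PC3 control and 241 and 245 TPM with TRIB1. The epithelial genes KRT8, KRT18, KRT19, EPCAM and CDH1 were present in all 8 libraries (9.36 TPM or more), and STAT3, which PC3 is known to have lost, was at 0.502 TPM or less in the PC3 libraries. HBB, a red cell gene, stood at 278 to 385 TPM in all 8. In the second DU145 TRIB1 library the short RNAs RN7SL1 and RN7SL2 took 3.17% of the total, while the remaining 7 libraries ranged from 1.27% to 2.24%.

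The 9 transcripts fell into 2 tiers. GAS5, NEAT1, SNHG1, PVT1 and MALAT1 stood between 27.3 and 675 TPM in every library, while H19, HOTAIR, UCA1 and MEG3 never exceeded 6.003 TPM. In DU145 control GAS5 was 4th among 12562 lincRNA and antisense genes ranked by mean TPM, NEAT1 11th, SNHG1 18th, PVT1 21st and MALAT1 38th. In PC3 control the order was different: NEAT1 was 3rd, GAS5 17th, SNHG1 26th, PVT1 56th and MALAT1 151st. The transcript that dominated the set was thus GAS5 in DU145 and NEAT1 in PC3.

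**Figure D1:**
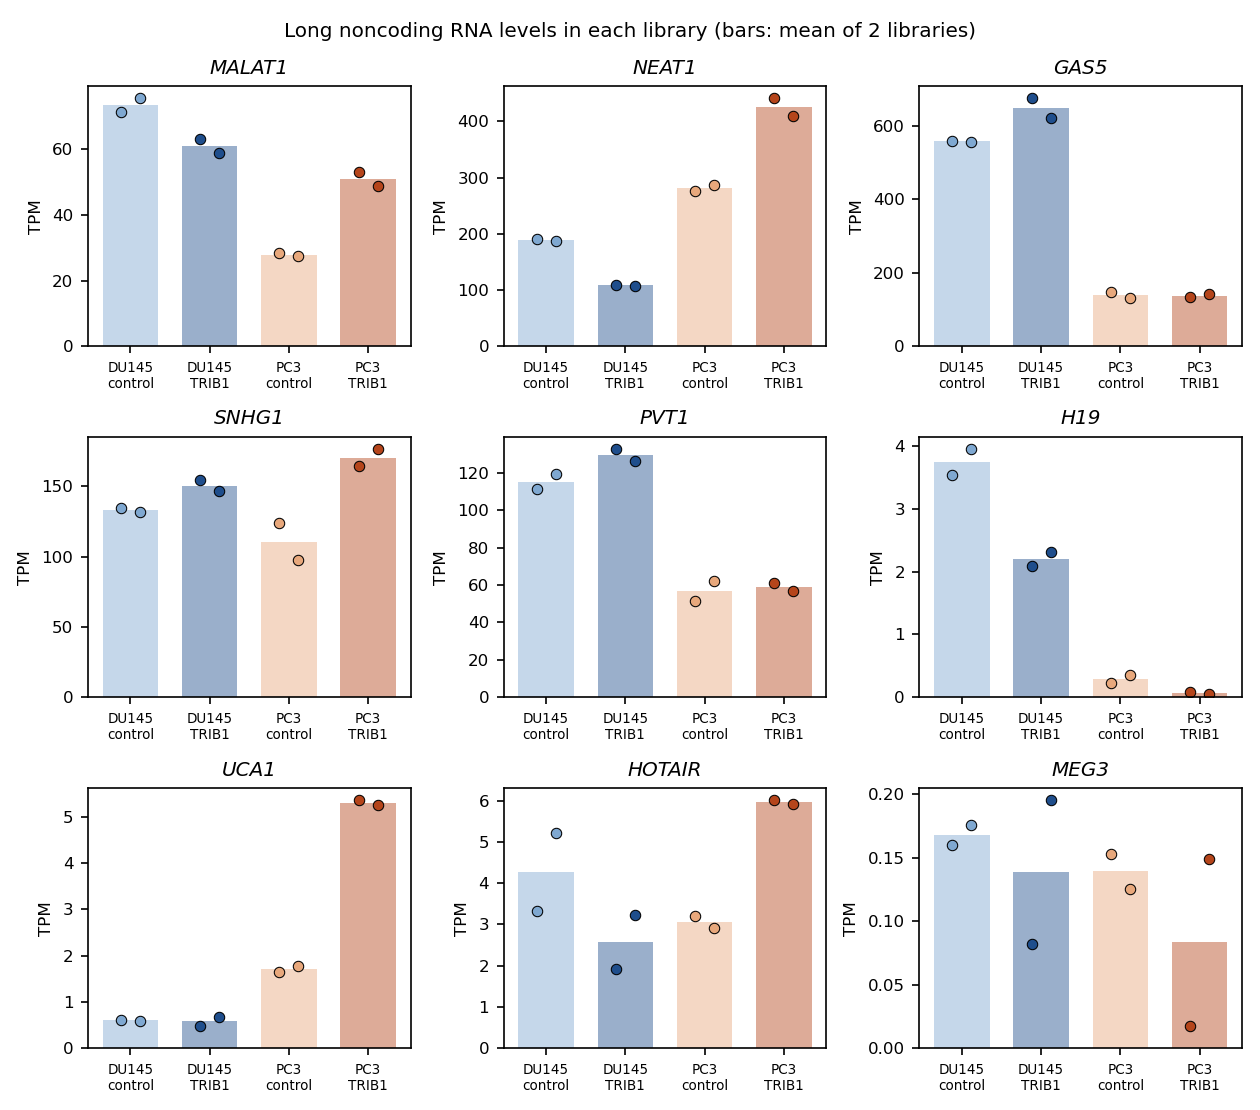
Level of each long noncoding RNA in TPM (vertical axes, each starting at 0) in the 4 groups. Points are the 2 libraries of a group and bars their mean. MALAT1, NEAT1 and UCA1 stand higher in PC3 with TRIB1 than in PC3 control, while NEAT1 stands lower in DU145 with TRIB1, and GAS5 sits at 557 to 675 TPM in DU145 against 131 to 148 TPM in PC3.

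Summed over the 9, the level was 1074 and 1081 TPM in DU145 control, 1139 and 1068 TPM in DU145 TRIB1, 633 and 609 TPM in PC3 control, and 864 and 844 TPM in PC3 TRIB1. GAS5 made up 51.8% of the sum in DU145 control and 58.8% with TRIB1, but 22.4% and 16.1% in PC3. NEAT1 made up 17.6% and 9.86% in DU145, and 45.3% and 49.7% in PC3. With TRIB1 the sum differed little in DU145, where its libraries overlapped with the controls, and was higher in PC3, where they did not.

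**Figure D2:**
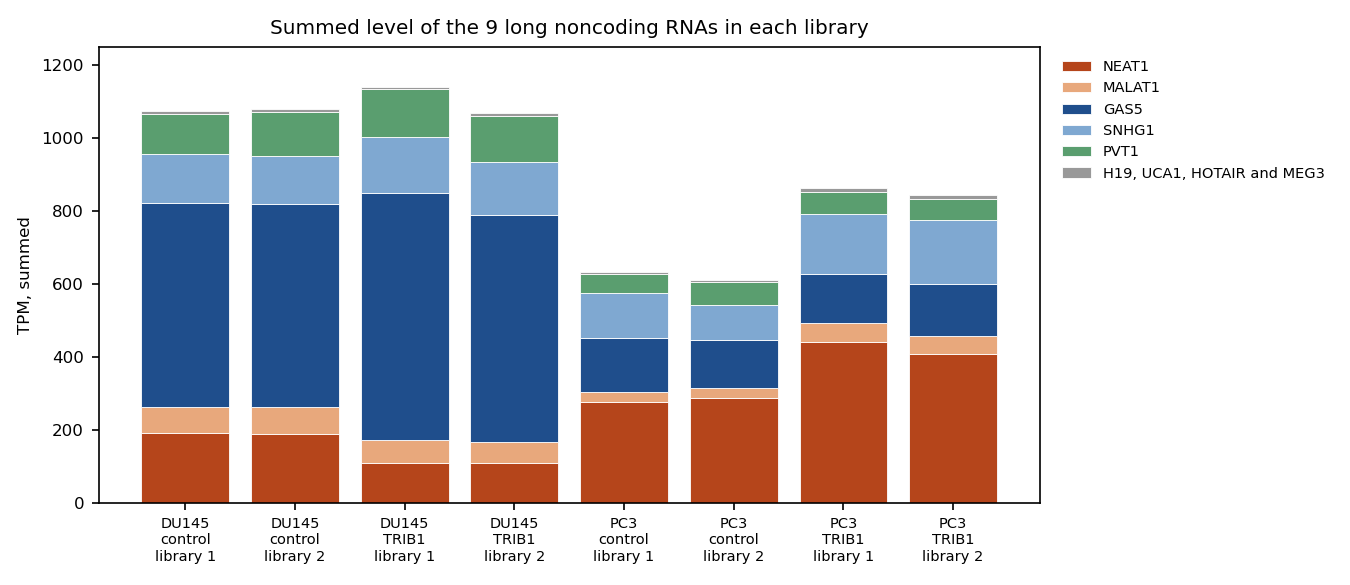
Summed TPM of the 9 transcripts in each of the 8 libraries, with a segment for each of the 5 abundant transcripts and a grey one for the other 4 together. The segment of GAS5 is the tallest in the 4 DU145 libraries and that of NEAT1 in the 4 PC3 libraries.

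Tests were made with limma on log2(TPM + 1) over the 25982 genes whose group mean reached 1 TPM somewhere, and the words rose and fell stand for an adjusted p below 0.05. MEG3 did not reach that level, which left 8 of the 9. Not every gene named was also run under other processing; where one that was lost its test there, this is said beside it. With TRIB1 in PC3, MALAT1, NEAT1, SNHG1 and UCA1 rose, 4 of 8, and none fell; of all genes tested, 17% were past the test in PC3, 7.67% higher and 9.33% lower. With TRIB1 in DU145, NEAT1 fell, 1 of 8, and none rose; the background there was 2.72%, and 2.01% for falls. The median change over the 8 was 0.61 in PC3 and -0.14 in DU145, against -0.01 and -0.04 over all genes tested. Among 2365 lincRNA genes tested, 8.96% were past the test in PC3 and 0.973% in DU145. The change itself differed between the lines for MALAT1, NEAT1 and UCA1, 3 of 8, each more negative in DU145, where 9.37% of all genes were past the test of the difference and 5.36% were more negative in DU145.

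**Figure D3:**
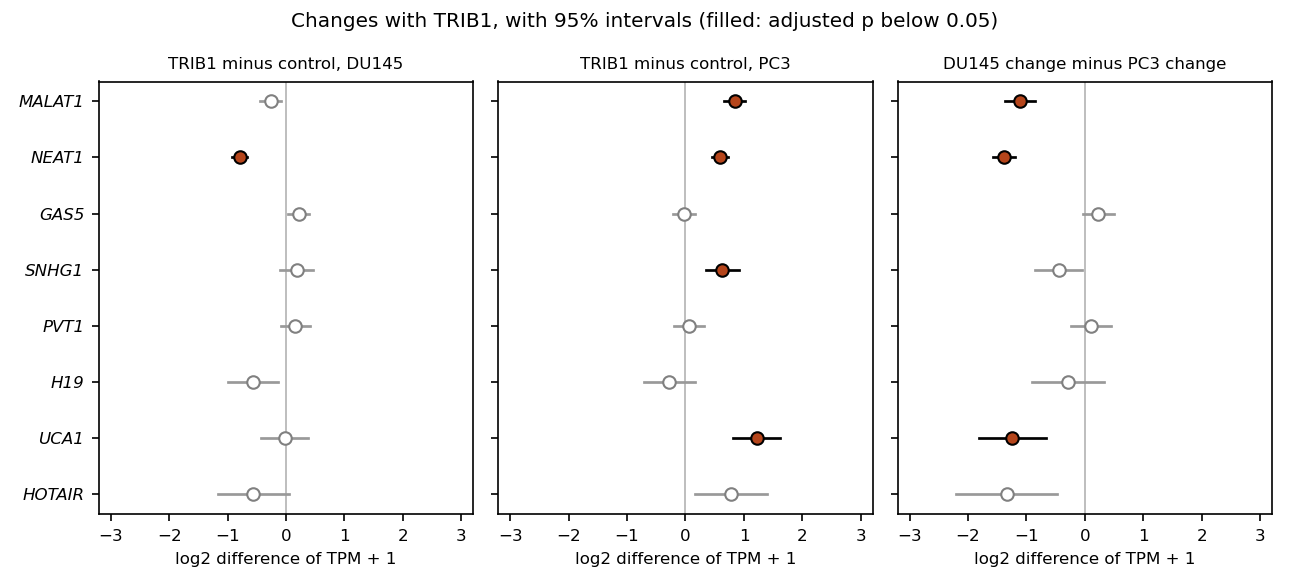
Difference in log2(TPM + 1) between TRIB1 and control in DU145 and in PC3, and the difference between these 2 changes, with 95% intervals from limma. Filled points are past an adjusted p of 0.05: NEAT1 in DU145, MALAT1, NEAT1, SNHG1 and UCA1 in PC3, and MALAT1, NEAT1 and UCA1 for the difference.

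MALAT1 (ENSG00000251562; listed on chromosome 11, 65265233 to 65273940, plus strand) is among the best known RNAs of nuclear speckles. It stood at 71.3 and 75.4 TPM in DU145 control, 63.0 and 58.8 TPM in DU145 TRIB1, 28.5 and 27.3 TPM in PC3 control, and 53.0 and 48.9 TPM in PC3 TRIB1. No 2 groups overlapped, and PC3 control was the lowest. In PC3 MALAT1 rose 1.83-fold with TRIB1 (log2 change 0.84, SE 0.07, adjusted p = 0.00254). In DU145 both TRIB1 libraries lay below both controls, but the change did not pass the test (log2 change -0.26, 95% interval -0.44 to -0.08, adjusted p = 0.142). The difference between the changes was -1.11 (SE 0.10, adjusted p = 0.00567). Between the controls, PC3 held less MALAT1 than DU145 (log2 difference -1.36, adjusted p = 5.19e-05), and the level in PC3 TRIB1 lay between those of the 2 controls. A lincRNA listed on the opposite strand, AP000769.7, overlaps MALAT1, and the strand setting of the counting is not given, so reads of the pair cannot be told apart.

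NEAT1 (ENSG00000245532; listed on chromosome 11, 65190245 to 65192232, plus strand) is made in a short polyadenylated form and in a long form on which paraspeckles assemble. The listed interval belongs to transcript NEAT1-002 and spans 1988 bases, and whether the long form enters the value is not given in the sources used here. NEAT1 stood at 191 and 188 TPM in DU145 control and at 110 and 108 TPM with TRIB1. Its PC3 values were 276 and 287 TPM in control and 441 and 409 TPM with TRIB1. The 4 groups were thus apart from one another, with DU145 TRIB1 lowest and PC3 TRIB1 highest. NEAT1 fell in DU145 (log2 change -0.79, SE 0.05, adjusted p = 0.00441) and rose in PC3 (log2 change 0.59, SE 0.05, adjusted p = 0.00282). These changes differed by -1.38 (SE 0.08, adjusted p = 0.00193). PC3 control held 1.49 times the level of DU145 control (log2 difference 0.57, adjusted p = 0.000412), the opposite of MALAT1, its neighbour on the chromosome.

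The labels name an NEB Ultra RNA kit and total RNA and do not say whether polyadenylated RNA was selected, and MALAT1 and the long form of NEAT1 lack a poly(A) tail. Of 13 tested RNAs known to lack a poly(A) tail or to be short, 2 rose in PC3, the histone genes HIST1H1E and HIST1H4H, and none fell. In DU145, HIST1H4H rose and none fell. Of all genes tested, 7.67% rose and 9.33% fell in PC3, and 0.712% rose and 2.01% fell in DU145. HIST1H4H lost its test under 11 of 16 alternatives in PC3 and under 8 in DU145. RN7SL1, an RNA of the signal recognition particle, had a log2 change of 0.27 in PC3 (adjusted p = 0.582) and 0.85 in DU145 (adjusted p = 0.192). The 14 measured members of the list summed to 16734 and 20256 TPM in PC3 control and to 20952 and 23021 TPM in PC3 TRIB1. In DU145 they summed to 14405 and 17405 TPM in control and to 21308 and 33639 TPM with TRIB1. The sum was thus higher with TRIB1 in both lines, while MALAT1 and NEAT1 were higher in PC3 and lower in DU145. The part of these RNAs in the changes of MALAT1 and NEAT1 was not tested.

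The proteins of the nuclear bodies that hold these RNAs were looked at next. Of 19 paraspeckle protein genes tested, none rose or fell in DU145. In PC3, HNRNPH3 and HNRNPA1 rose, and SFPQ and HNRNPR were among those that fell, with log2 changes from -0.54 to 0.45, and HNRNPA1 lost its test under 8 of 16 alternatives. Over all genes, 7.67% rose and 9.33% fell there. SFPQ, a core paraspeckle protein, fell from 216 and 213 TPM to 156 and 140 TPM (log2 change -0.54, adjusted p = 0.0113), while NEAT1 rose in the same libraries. The other core proteins had log2 changes of -0.31 (NONO, adjusted p = 0.0813) and 0.58 (PSPC1, adjusted p = 0.0524). Of 19 genes for splicing factors of nuclear speckles, 9 fell in PC3 and none rose, and in DU145 SRSF6 and TRA2A fell, against 9.33% and 2.01% of all genes that fell. RBM25 fell the most in PC3, from 107 and 98.9 TPM to 53.3 and 50.5 TPM (log2 change -0.97, adjusted p = 0.0028). SRSF2 (log2 change -0.45), SRSF11 (-0.48) and SRSF7 (-0.21) fell as well, but SRSF7 lost its test under 11 of 16 alternatives and the others under 2 each. The median change of the speckle list was -0.21 in PC3 and -0.16 in DU145, beside -0.01 and -0.04 over all genes.

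Genes of other cell types were checked beside these changes, since in bulk RNA fewer cells of a type and less RNA per cell cannot be told apart. Of 13 measured markers, 6 stayed under 1 TPM in all libraries, among them PTPRC, the common leukocyte gene, at 0.151 to 0.467 TPM. CD68, a lysosomal gene of macrophages, moved as NEAT1 did with TRIB1: it stood at 26.2 and 31.7 TPM in DU145 control and 7.20 and 7.04 TPM with TRIB1, and at 17.6 and 20.8 TPM in PC3 control and 32.7 and 30.3 TPM with TRIB1. It fell in DU145 (log2 change -1.88, adjusted p = 0.00441) and rose in PC3 (0.69, adjusted p = 0.0191). Also in PC3, COL1A1 fell (-0.71) and LUM rose (1.23), both genes of stroma. Only 7 of the 13 markers could be tested. Of these, 2 rose and 1 fell in PC3, where 7.67% of all genes tested rose and 9.33% fell. In DU145, 1 fell and none rose, where the shares were 2.01% and 0.712%. The call was lost under 4 of 16 alternatives for CD68 in PC3 and 1 in DU145, 2 of 16 for COL1A1 and 7 of 15 for LUM. The 13 markers summed to 427 and 484 TPM in DU145 control, 412 and 341 TPM in DU145 TRIB1, 432 and 417 TPM in PC3 control, and 448 and 386 TPM in PC3 TRIB1, mostly HBB, and their part in the results was not tested. The epithelial genes KRT8 (log2 change 1.54), KRT18 (1.52), EPCAM (1.78) and CDH1 (1.53) rose in PC3 with TRIB1, where 7.67% of all genes rose. KRT19 was not past the test in PC3, and none of these genes was past it in DU145.

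GAS5 (ENSG00000234741; listed on chromosome 1, 173833038 to 173837127, minus strand) is known to rise when growth stops or translation is blocked. It stood at 559 and 557 TPM in DU145 control, 675 and 622 TPM in DU145 TRIB1, 148 and 131 TPM in PC3 control, and 134 and 141 TPM in PC3 TRIB1. The DU145 groups were apart from each other, and the PC3 groups overlapped. GAS5 passed the test of TRIB1 in neither line, with a log2 change of 0.22 in DU145 (95% interval 0.03 to 0.40, adjusted p = 0.227) and of -0.02 in PC3 (95% interval -0.21 to 0.17, adjusted p = 0.949). Between the control lines its level was 4.001-fold lower in PC3 (log2 difference -2.0 on the TPM + 1 scale, SE 0.08, adjusted p = 1.64e-05). GAS5-AS1 on the opposite strand and the snoRNA gene SNORD78 on the same strand overlap it as listed. GAS5-AS1 was at 0.515 to 1.89 TPM in all libraries.

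SNHG1 (ENSG00000255717; listed on chromosome 11, 62619460 to 62622708, minus strand) was the first host described whose spliced RNA codes for no protein while its introns hold snoRNAs. It stood at 134 and 132 TPM in DU145 control, 154 and 147 TPM in DU145 TRIB1, 124 and 97.2 TPM in PC3 control, and 165 and 176 TPM in PC3 TRIB1. The groups did not overlap, though the PC3 controls were farther apart than the libraries of any other group. SNHG1 rose in PC3 (log2 change 0.63, SE 0.11, adjusted p = 0.0182) and did not pass in DU145 (0.18, adjusted p = 0.482). The rise lost its test without either PC3 TRIB1 library, without either DU145 control library, and with only the PC3 libraries in the fit (adjusted p up to 0.109, log2 change 0.46 to 0.80 over all alternatives). The difference between the lines in this change was -0.45 (adjusted p = 0.148). The gene pair beside it moved too: SLC3A2, the heavy chain of amino acid transporters, rose from 171 and 178 TPM to 292 and 288 TPM in PC3 (log2 change 0.74, adjusted p = 0.00306), and WDR74, a ribosome assembly factor, rose as well (0.64, adjusted p = 0.0274), a call lost under 9 of 16 alternatives.

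The other snoRNA hosts were counted in the same way. Of 21 hosts other than GAS5 and SNHG1, 5 rose with TRIB1 in PC3 (SNHG3, SNHG5, SNHG12, SNHG18 and DANCR) and 2 in DU145 (SNHG19 and SNHG21), and none fell in either, where 7.67% and 0.712% of all genes tested rose. The rise of SNHG18 was lost under 5 of 16 alternatives. Their median change was 0.13 in both lines. Between the controls, 7 were lower in PC3 and 6 higher, where 47% of all genes tested were past the test, 28.4% lower and 18.6% higher. SNHG5 stood at 1495 and 1432 TPM in DU145 control and at 104 and 101 TPM in PC3 control (log2 difference -3.82, adjusted p = 1.03e-06). SNHG7 was at 212 and 207 TPM against 13.2 and 13.7 TPM (-3.86, adjusted p = 3.72e-06). SNHG6 had a log2 difference of -1.42 and ZFAS1 of -0.53, both also lower in PC3. Of the 11 hosts with at least 1 annotated transcript that opens with the tract, 5 were lower in PC3 control, 3 higher and 3 not past the test. Of the 10 with none, SNHG7 among them, 2 were lower, 3 higher and 5 not past it. SNHG1 had a difference of -0.27 (adjusted p = 0.1). SNHG18 went the other way: it was listed at 0 in all 4 DU145 libraries and stood at 8.06 and 7.02 TPM in PC3 control. With TRIB1 in PC3, SNHG5 rose to 170 and 164 TPM (log2 change 0.70, adjusted p = 0.00147).

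**Figure D4:**
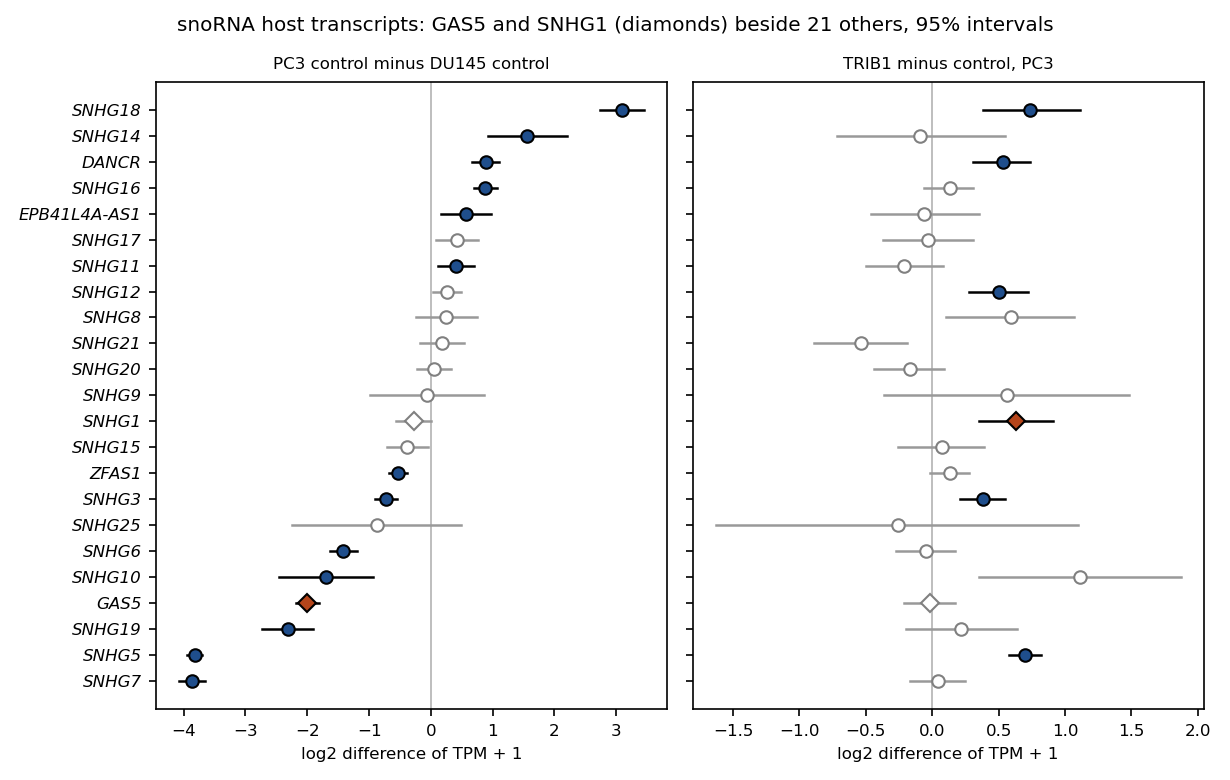
Differences in log2(TPM + 1) of GAS5, SNHG1 (diamonds) and 21 other snoRNA hosts (circles), with 95% intervals: PC3 control minus DU145 control on the left, TRIB1 minus control in PC3 on the right. Filled symbols are past an adjusted p of 0.05. The spread between the lines, from -3.86 for SNHG7 to 3.09 for SNHG18, is wider than the spread of the changes with TRIB1.

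Of the snoRNAs, SNORD78 alone has a row inside the listed interval of GAS5, and none has one inside that of SNHG1; rows of the same names elsewhere in the genome were not used. SNORD78 stood at 7.66 and 26.4 TPM in DU145 control, 2.85 and 6.05 TPM in DU145 TRIB1, 40.1 and 4.34 TPM in PC3 control, and 11.03 and 8.804 TPM in PC3 TRIB1. The PC3 controls alone thus spanned nearly the whole range, and none of the 4 comparisons was past the test (DU145 log2 change -1.56 with adjusted p = 0.486, PC3 log2 change -0.45 with adjusted p = 0.844). Of 14 factors of nonsense-mediated decay, the pathway that degrades the spliced hosts, none was past the test of TRIB1 in DU145. Between the control lines, UPF1 (log2 difference 0.68), UPF3A (1.33), UPF3B (0.72) and EIF4A3 (0.44) were higher in PC3, and UPF2, SMG1, SMG5, CASC3 and RBM8A were among those that were lower.

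H19 (ENSG00000130600; listed on chromosome 11, 2016406 to 2017421, minus strand) is abundant in the fetus, and its first exon holds the hairpin of miR-675. The mature sequences of that hairpin, from RefSeq on GRCh38.p14, are shown because they are the known processed product of H19, with the seed (bases 2 to 8) in capitals. The 2 seeds differ, so the arms belong to different seed groups, and the level of this microRNA was not analysed here.
miR-675-5p: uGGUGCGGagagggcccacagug
miR-675-3p: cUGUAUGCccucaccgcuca
H19 stood at 3.53 and 3.94 TPM in DU145 control, 2.08 and 2.31 TPM in DU145 TRIB1, 0.232 and 0.347 TPM in PC3 control, and 0.0827 and 0.0457 TPM in PC3 TRIB1. Each group was below the one named before it, with no overlap. The change with TRIB1 did not pass in DU145 (log2 change -0.57, 95% interval -1.0 to -0.13, adjusted p = 0.181) or in PC3, where both groups were under 1 TPM and the scale of log2(TPM + 1) flattens differences (-0.28, adjusted p = 0.366). Between the controls H19 was 12.9-fold lower in PC3 by TPM (log2 difference -1.88 on the TPM + 1 scale, SE 0.18, adjusted p = 0.000417). Its imprinted neighbour IGF2, a growth factor gene read from the paternal chromosome, rose in PC3 with TRIB1 from 4.50 and 6.63 TPM to 10.5 and 11.2 TPM (log2 change 0.87, adjusted p = 0.0246), a call lost under 7 of 16 alternatives (adjusted p up to 0.125).

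MEG3 (ENSG00000214548; listed on chromosome 14, 101245747 to 101295522, plus strand) is a growth-restraining RNA that many tumours silence. It stayed at 0.160 and 0.175 TPM in DU145 control, 0.0823 and 0.195 TPM in DU145 TRIB1, 0.153 and 0.126 TPM in PC3 control, and 0.0176 and 0.149 TPM in PC3 TRIB1. It was not tested, and the TRIB1 libraries of each line overlapped with their controls. The imprinted genes beside it, DLK1 and RTL1, were at 0.115 TPM or less in all libraries. MEG9 stood apart from them, with 0.137 and 0.0716 TPM in DU145 control and 2.63 and 8.51 TPM in PC3 control (log2 difference 2.41, adjusted p = 0.0063).

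HOTAIR (ENSG00000228630; listed on chromosome 12, 54356092 to 54368740, minus strand, as antisense) is read against the HOXC genes and overlaps HOXC11 on the other strand. It stood at 3.32 and 5.21 TPM in DU145 control, 1.93 and 3.23 TPM in DU145 TRIB1, 3.19 and 2.91 TPM in PC3 control, and 6.003 and 5.91 TPM in PC3 TRIB1. PC3 TRIB1 was above all other groups, and the libraries of DU145 spread widely. No test was passed: the log2 change was -0.56 in DU145 (95% interval -1.17 to 0.05, adjusted p = 0.324) and 0.78 in PC3 (95% interval 0.17 to 1.39, adjusted p = 0.0894). The difference between these changes was -1.34 (95% interval -2.20 to -0.47, adjusted p = 0.073), as large as those of MALAT1 and NEAT1 but with an SE of 0.35. HOXC8 rose in PC3 with TRIB1 (log2 change 0.64, adjusted p = 0.0229), a call lost under 4 of 16 alternatives. HOXC9 and HOXC10 were far lower in PC3 control than in DU145 control (log2 differences -2.84 and -2.91), whereas HOTAIR was not past the test (-0.36, adjusted p = 0.293).

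Of 11 genes of Polycomb repressive complex 2 and its partners, EED, the subunit that reads the H3K27 methyl mark, fell in DU145, a call lost under 10 of 16 alternatives (adjusted p up to 0.145), and rose in PC3. EED stood at 25.7 and 27.0 TPM in DU145 control and 19.7 and 19 TPM with TRIB1, and at 10.98 and 11.5 TPM in PC3 control and 17.6 and 17.5 TPM with TRIB1. The groups were apart, and the changes (log2 -0.43, adjusted p = 0.0486, and 0.60, adjusted p = 0.00609) differed between the lines by -1.03 (adjusted p = 0.00704). PHF1 fell in PC3 (-0.62, adjusted p = 0.0231), and the other 9, EZH2 and SUZ12 among them, were past the test in neither line. In PC3, 1 of the 11 thus rose and 1 fell, where 7.67% of all genes tested rose and 9.33% fell. In DU145, 1 of the 11 fell, where 2.01% of all genes tested did. In PC3 control 7 of the 11 were lower than in DU145 control and none was higher, where 28.4% of all genes were lower and 18.6% higher.

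UCA1 (ENSG00000214049; listed on chromosome 19, 15939771 to 15947130, plus strand) had the largest change with TRIB1 among the 8 on the log2(TPM + 1) scale; by TPM that of H19 in PC3 was larger, 4.51-fold lower, with both groups under 1 TPM. It stood at 0.619 and 0.587 TPM in DU145 control and 0.480 and 0.687 TPM in DU145 TRIB1, which overlapped. The PC3 libraries had 1.66 and 1.77 TPM in control and 5.35 and 5.26 TPM with TRIB1, well apart. UCA1 rose 3.10-fold in PC3 by TPM (log2 change 1.22 on the TPM + 1 scale, SE 0.16, adjusted p = 0.0077), which also exceeded an absolute log2 change of 1, as 5.2% of all genes did with an adjusted p below 0.05. The change in DU145 was -0.02 (95% interval -0.43 to 0.38, adjusted p = 1). The difference between the lines, -1.24, was past the test (adjusted p = 0.0309) but lost it under 8 of 15 alternatives: without either PC3 TRIB1 library or either DU145 control, at a pseudocount of 0.1, with no filter, with a filter at 5 TPM, and with the replicate block (adjusted p up to 0.0799). AC004510.3, a lincRNA listed on the opposite strand, overlaps UCA1. The cytochrome P450 genes beside it went the other way between the lines: CYP4F11 stood at 27.8 and 29.1 TPM in DU145 control and 0.0467 and 0.0215 TPM in PC3 control, and CYP4F12 had a log2 difference of -2.74, while UCA1 was higher in PC3 control (log2 difference 0.76, adjusted p = 0.0115, lost under 2 of 16 alternatives).

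PVT1 (ENSG00000249859; listed on chromosome 8, 128806779 to 128903221, plus strand) lies beside MYC and is often gained with it in tumours. PVT1 stood at 111 and 119 TPM in DU145 control, 132 and 126 TPM in DU145 TRIB1, 51.6 and 62.0 TPM in PC3 control, and 61.0 and 57.0 TPM in PC3 TRIB1. The lines were apart, and within PC3 the groups overlapped. It passed the test of TRIB1 in neither line (log2 change 0.16, 95% interval -0.08 to 0.41, adjusted p = 0.465 in DU145; 0.06, 95% interval -0.19 to 0.31, adjusted p = 0.764 in PC3). PC3 control held less than DU145 control (log2 difference -1.01, SE 0.10, adjusted p = 0.00048). MYC had the opposite order, at 34.6 and 34.8 TPM in DU145 control and 138 and 178 TPM in PC3 control (log2 difference 2.14, adjusted p = 5.71e-05). MIR1205 and MIR1207, microRNA genes of the PVT1 locus, were taken by symbol, and their rows lie outside the listed interval of PVT1. Both were lower in PC3 control (log2 differences -3.18 and -2.63), with values as uneven as 35.6 and 6.58 TPM in the DU145 controls for MIR1205. These calls were lost under 8 and 10 of 15 alternatives (adjusted p up to 0.16 and 0.181).

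Between the control lines, 6 of the 8 were past the test, where the background was 47%: NEAT1 and UCA1 were higher in PC3, and MALAT1, H19, PVT1 and GAS5 lower. Those 4 also had an absolute log2 difference over 1, as did 25.4% of all genes tested. Scaling the libraries by median-of-ratios moved the median of all genes in this comparison by 0.168 on the log2 scale, and all 6 kept their direction and their test under it. PVT1 then lay under a log2 difference of 1 in size (from -1.14 to -0.81 over all alternatives).

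Of 26 measured neighbours of these transcripts on their chromosomes, 19 could be tested. In DU145, SLC3A2 beside SNHG1 rose (log2 change 0.40, adjusted p = 0.0491), a call lost under 11 of 16 alternatives (adjusted p up to 0.196). In PC3, SLC3A2, WDR74, IGF2 and HOXC8 rose and MRPL23 fell (log2 change -0.31, adjusted p = 0.0498), the last also lost under 11 of 16 alternatives. The shares of all genes tested that rose and fell were 7.67% and 9.33% in PC3, and 0.712% and 2.01% in DU145. FRMD8 and LTBP3, neighbours of MALAT1 and NEAT1, were past the test of TRIB1 in neither line, with log2 changes from -0.45 to -0.06. Between the control lines 5 of the 19 neighbours were higher in PC3 and 7 lower, where 18.6% of all genes were higher and 28.4% lower. MRPL23 beside H19 was higher (2.37), ZBTB37 beside GAS5 was lower (-1.25), and HOXC13 (-0.54, lost under 6 of 16 alternatives) and HOXC-AS3 (-2.22) were lower.

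**Figure D5:**
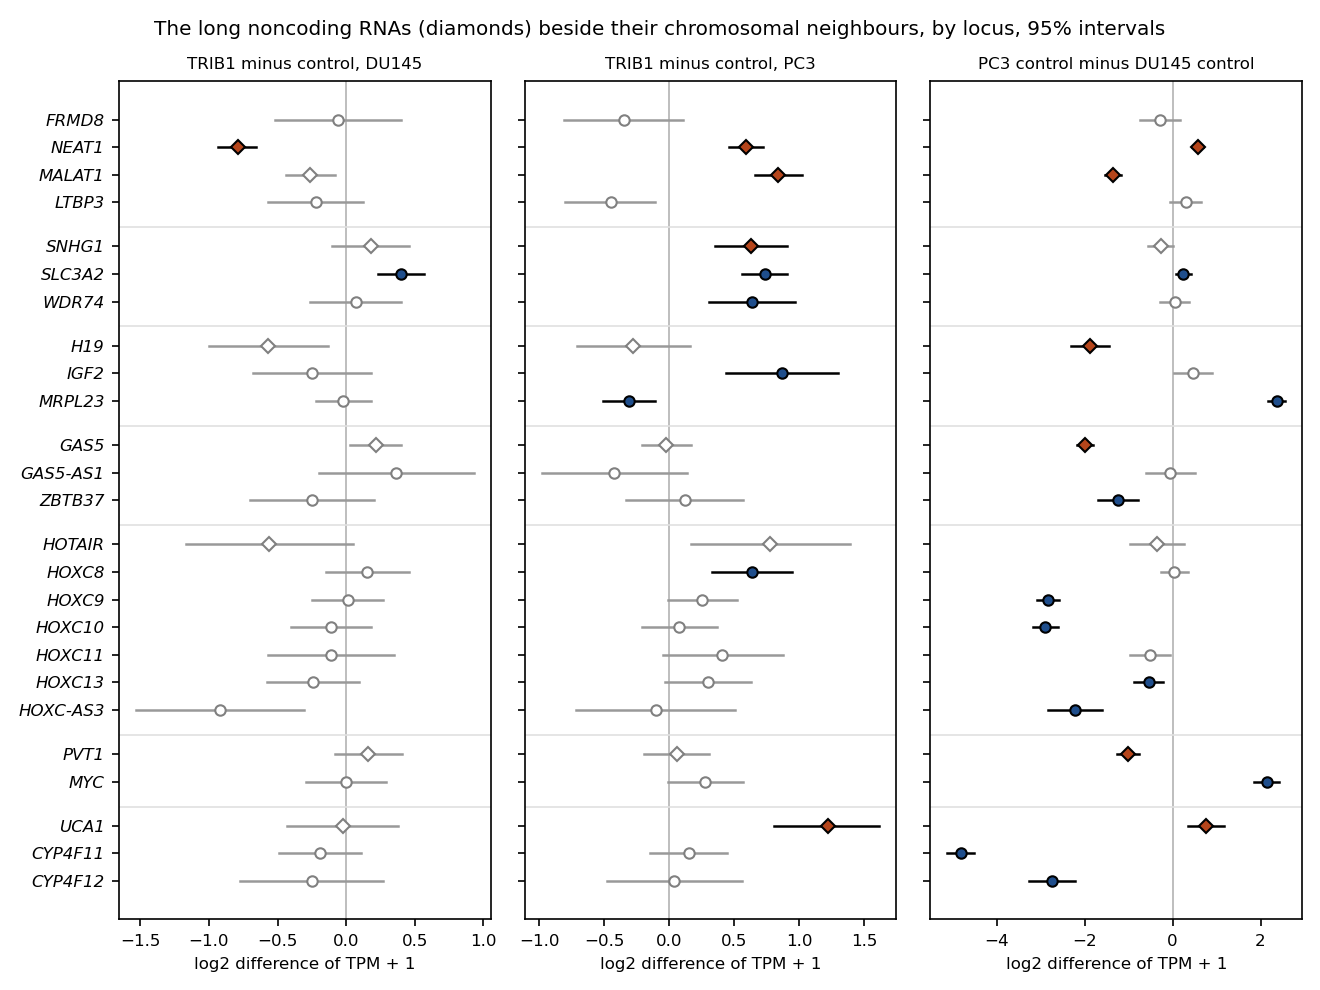
Differences in log2(TPM + 1) with 95% intervals for the long noncoding RNAs (diamonds) and their chromosomal neighbours (circles), grouped by locus: TRIB1 minus control in DU145 and in PC3, and PC3 control minus DU145 control. Filled symbols are past an adjusted p of 0.05. SNHG1 and both its neighbours are filled and to the right in PC3, while MALAT1 and NEAT1 are the filled points of their locus in that comparison.

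Across the 8 libraries, the genes with the most similar profile were sought among the 13521 genes averaging 5 TPM or more, by the root mean square distance between centred log2(TPM + 1) values. That scale flattens differences at low TPM, so genes close to H19 or UCA1 need not share their fold changes by TPM. Among those closest to NEAT1 were PERP (distance 0.108) and FRMD4B (0.116). PERP, a desmosome gene that p53 controls, had means of 22.5, 13.8, 38.4 and 61.4 TPM in the controls and TRIB1 group of DU145 and then of PC3. Closest to MALAT1 were CTSV (0.098), KIF21A (0.103) and PPP2CB (0.111), and to UCA1 TRMT13 (0.079), BMI1 (0.107) and SLC10A7 (0.131). BMI1, a Polycomb group gene, had means of 43.5, 44.9, 68.2 and 169 TPM in the same order. Closest to SNHG1 was EEF1B2 (0.062), an elongation factor gene that itself hosts snoRNAs, and then TAF1D (0.072), another snoRNA host, and LYAR (0.073). GAS5 was closest to DPM3 (0.087), PRSS23 (0.089) and MYBL1 (0.102), PVT1 to RTN4R (0.054), C9orf3 (0.064) and MYH9 (0.075), and H19 to NCSTN (0.082), VPS13A (0.108) and TPRA1 (0.114). For these 3 transcripts and the 9 genes closest to them, both DU145 means were above both PC3 means. The 9 genes were picked by that closeness, so their sharing of this order follows from the choice and is no separate result.

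Other long noncoding RNAs with ties to cancer were counted next. Of 23 tested in PC3, 2 rose with TRIB1 (CYTOR and DLEU2) and 6 fell (NORAD, HOTTIP, LUCAT1, MIR210HG, OIP5-AS1 and LINC01116), with a median change of -0.20. Of all genes tested 7.67% rose and 9.33% fell there, and of lincRNA genes 4.19% and 4.78%. LUCAT1, first described in lung cancer of smokers, fell from 10.7 and 10.0 TPM to 1.62 and 0.804 TPM (log2 change -2.39, adjusted p = 0.00161). LINC01116 fell from 38.9 and 32.3 TPM to 11.7 and 13.0 TPM (-1.45, adjusted p = 0.00481), and HOTTIP, at the end of the HOXA cluster, from 5.67 and 5.57 TPM to 2.32 and 2.27 TPM (-1.01, adjusted p = 0.0134; lost at a pseudocount of 0.1). In DU145, DLEU1 rose (0.65), and NORAD (-0.50) and LINC00511 (-1.09) fell, 1 and 2 of the 23 tested. The DU145 shares were 0.712% higher and 2.01% lower over all genes tested, and 0.507% and 0.465% over lincRNA genes. NORAD, an abundant cytoplasmic RNA that binds PUMILIO proteins, thus fell in both lines. CRNDE showed the widest gap of this list between the control lines, at 53.5 and 41.1 TPM in DU145 against 0.621 TPM in a PC3 library and a listed 0 in the other. The prostate RNAs PCA3, PCGEM1 and PRNCR1 were at 0.187 TPM or less in all 8 libraries.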

How the data were processed

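The deposited table gives TPM values for 8 libraries, which the authors made, and every column has the same sum, per the file itself. According to the submitters' processing notes, TopHat2 2.0.14, HTSeq, DESeq, edgeR and hg38 were used, with no role stated. What made the TPM values, the strand setting and the gene lengths is not given in the sources used here. Each listed interval is that of a single transcript and is printed as listed. Starts equal those of GENCODE 29 for 365 of 52338 common identifiers (0.7%), so the table's build is another, which is not stated, and no coordinate was converted. Depth is unknown, so no counting interval was computed.

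limma 3.58.1 (R 4.3.3) was run with a trend in the variance on log2(TPM + 1), all 8 libraries and 4 group means entering 1 fit (4 residual degrees of freedom, prior 1.89), for the 25982 genes that reached a group mean of 1 TPM. Benjamini-Hochberg adjustment covered all of them. The procedure was tested on simulated data. TPM ratios are ratios of group means. The comparisons were TRIB1 with control within DU145, within PC3, the first minus the second, and the PC3 with the DU145 control; they share libraries.

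The transcripts and the 15 lists (222 names, 194 found, snoRNAs only inside their host) were chosen with earlier results of these data known. Named are the 9 transcripts, TRIB1, up to 4 members of each list with the smallest p, neighbours past the test and the 3 most similar genes. Other genes were named after their values were seen. A few genes that this rule names are not reported here. Alternatives were another pseudocount, filter or scaling, leaving out short RNAs, a replicate block, only the groups compared, and leaving out each library. Sequences come from GENCODE 29 and RefSeq.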

Additional observations from a re-analysis of the deposited data

Results flagged for a closer look

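For 3 transcripts the change with TRIB1 in DU145 differed from that in PC3, by limma's test of the difference. The difference, DU145 minus PC3, was -1.11 for MALAT1 (adjusted p = 0.00567), -1.38 for NEAT1 (adjusted p = 0.00193) and -1.24 for UCA1 (adjusted p = 0.0309), each on the log2(TPM + 1) scale. The DU145 change was -0.26 for MALAT1, -0.79 for NEAT1 and -0.02 for UCA1, and the PC3 change 0.84, 0.59 and 1.22. NEAT1 was past the test in both lines, in opposite directions, while MALAT1 and UCA1 were past it in PC3. The difference for UCA1 lost its test under 8 of 15 alternatives (adjusted p up to 0.0799), and those for MALAT1 and NEAT1 under none of the 15 run for each.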

How the results depend on the processing

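Of 144 gene results past the test, all kept their direction under every alternative that gave a value, and 95 stayed past it in all. The results of MALAT1 and NEAT1 that were past the test stayed past it, the closest being the fall of NEAT1 in DU145 (adjusted p up to 0.047). The number of members past the test stayed within 1.5 times in each comparison. The number of genes called (adjusted p below 0.05 and absolute log2 change over 1) in DU145, 290 (81 higher, 209 lower), was 150 (41 higher, 109 lower) with the replicate block and 46 (9 higher, 37 lower) with only the DU145 libraries, and 195 to 584 when single libraries were left out. Leaving out the first DU145 TRIB1 library gave 405 higher and 179 lower, and leaving out the first DU145 control 65 and 371. The shared replicate numbers are not said to pair libraries, and deviations of libraries with the same number correlated at -0.107 to 0.02 over 13526 genes; with the block, UCA1 lost its difference between the lines. Between the control lines, 2542 genes were called higher in PC3 and 4068 lower, against 3130 and 3166 with median-of-ratios scaling and 3132 and 3208 with upper-quartile scaling. Values that changed sign had not been past the test: H19, difference between the lines, 0.50 at a pseudocount of 0.1; PVT1 in PC3, -0.07 to 0.19, and for the difference, -0.03 to 0.24, without single libraries; GAS5 in PC3, 0.05 with median-of-ratios scaling and -0.11 to 0.07 without single libraries, 0.02 among them; UCA1 in DU145, 0.01 with median-of-ratios scaling and -0.11 to 0.07 without single libraries. Without the first PC3 control, SNHG1 passed for the difference (adjusted p = 0.0229) and between the controls (adjusted p = 0.0068). UCA1 between the controls lost its test at a filter of 5 TPM and with only these groups (adjusted p up to 0.0534). The cause of these changes was not tested. Library totals are unknown, so how far depth limits H19, HOTAIR, UCA1 and MEG3 is unknown too.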
